A study of Mus musculus with 36 samples.

Results

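The 39 Hox genes of the 4 mouse clusters and the 3 Cdx genes were followed in RNA-seq libraries of mouse embryonic stem cells (ESCs) that were turned into anterior neural progenitor cells. They were picked by symbol, as every gene named Hoxa, Hoxb, Hoxc or Hoxd with a paralog number together with Cdx1, Cdx2 and Cdx4. No measured value decided which genes of these families belong, but the families were chosen with earlier results of these data known. They are 42 of the 54281 genes listed in each table, with 11 genes in the HoxA cluster, 10 in HoxB, 9 in HoxC and 9 in HoxD. By paralog number, 8 Hox genes are anterior (paralogs 1 to 3), 15 are middle (paralogs 4 to 8) and 16 are posterior (paralogs 9 to 13).

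The 36 libraries came from feeder-depleted ESCs (day 0) and from cells taken on days 1 to 5 of a monolayer differentiation in N2B27 medium, with a B27 supplement that lacks vitamin A and with bFGF until day 3. All lines had the same (B6 × 129S6)F1 background of the Tet1tm1Koh colony. Tet1 knockout (KO) cells were lines KO1 and KO15 and wild-type (WT) cells were lines WT7 and WT34, which the methods describe as littermate pairs derived from blastocysts. They were sequenced in 2 experiments, the first on days 0, 3 and 5 with 1 library per line and day, and the second on each day from 1 to 5. Catalytically dead Tet1 mutant (MUT) cells were CM59 and CM69, which are clonal lines made with Cas9 and homology directed repair in WT7. They were sequenced in experiment 3 on days 3 and 5 beside WT70, a line that the labels give only as WT. That gives 2 libraries each for KO and WT on days 0, 1, 2 and 4, 4 each on day 3, 3 each on day 5, 2 MUT libraries a day and 1 WT70 library a day. Libraries of the same line in different experiments are repeat differentiations of that line, so p-values measure the spread between libraries of 2 lines per genotype.

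Hox genes encode homeodomain transcription factors that tell cells where they lie along the head-to-tail axis. Within a cluster the genes lie in the order in which they are switched on during development, with the anterior, retinoic acid responsive genes first and the posterior genes last. The Cdx genes are homeobox genes of the ParaHox family that act in the primitive streak and tail bud, respond to Wnt and FGF signals and help to switch on middle Hox genes. Forebrain and midbrain progenitors lack Hox transcripts, whereas hindbrain, spinal cord, trunk mesoderm and gut carry region-specific sets of them.

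On GRCm38 (mm10) the HoxB cluster spans chr11:96194316-96368256, HoxC chr15:102921103-103036852 and HoxD chr2:74668310-74765142. Cdx2 lies at chr5:147300805-147307270 and Cdx4 at chrX:103321398-103330592. The Hox genes are packed closely enough that the exons of 9 members overlap those of another gene on the same strand, among them Hoxd3 with Hoxd4 and Hoxc5 with Hoxc10, and those of 10 members overlap a gene on the other strand. The kit keeps the strand but the strand setting of the quantification is not given in the sources used here, so values of Hoxb2 and Hoxb3 (with Hoxb3os) and of Hoxd3 and Hoxd4 could share reads with those neighbours.

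Promoters from RefSeq (GRCm38.p6, 250 bases before to 50 bases after each start) matched 24 of the 42 members, with 26 promoters. The letters TTTATG, a core recognised by Cdx proteins, were searched on both strands and stood in 5 of the 26 member promoters (19.2%), those of Hoxa7, Hoxb8, Hoxd3, Hoxd4 and Hoxd11, against 11.9% of all 32851 promoters. The promoters of Hoxb8, Hoxd3 and Hoxd4 are printed because these middle and group 3 genes carry the motif and reached their highest values in MUT cells on day 5, and that of Hoxb1 because it was called higher in KO cells on days 4 and 5 and lacks the motif. Each is written 5′ to 3′ on the strand of its gene, and capitals mark the motif or its reverse complement CATAAA. Hoxb8 lies at chr11:96281655-96281954 on the + strand, Hoxd3 at chr2:74711743-74712042 (+), Hoxd4 at chr2:74721728-74722027 (+) and Hoxb1 at chr11:96365508-96365807 (+).
Hoxb8: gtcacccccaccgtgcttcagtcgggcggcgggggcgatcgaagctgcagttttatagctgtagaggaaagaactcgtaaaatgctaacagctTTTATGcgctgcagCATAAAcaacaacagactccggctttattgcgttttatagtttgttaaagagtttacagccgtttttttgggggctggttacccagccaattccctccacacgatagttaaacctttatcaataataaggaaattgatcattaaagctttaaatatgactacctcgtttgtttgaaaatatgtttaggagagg
Hoxd3: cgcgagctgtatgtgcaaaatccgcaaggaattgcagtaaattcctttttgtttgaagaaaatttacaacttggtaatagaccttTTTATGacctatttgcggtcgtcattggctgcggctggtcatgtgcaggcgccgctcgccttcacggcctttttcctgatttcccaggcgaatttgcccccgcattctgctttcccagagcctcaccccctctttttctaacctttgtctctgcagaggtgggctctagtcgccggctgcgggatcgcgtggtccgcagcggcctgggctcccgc
Hoxd4: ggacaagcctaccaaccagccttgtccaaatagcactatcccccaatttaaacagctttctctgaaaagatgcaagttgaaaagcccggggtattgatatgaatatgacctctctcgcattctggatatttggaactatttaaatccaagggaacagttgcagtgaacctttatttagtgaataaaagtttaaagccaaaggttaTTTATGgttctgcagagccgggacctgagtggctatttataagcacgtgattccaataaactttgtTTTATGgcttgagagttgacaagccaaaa
Hoxb1: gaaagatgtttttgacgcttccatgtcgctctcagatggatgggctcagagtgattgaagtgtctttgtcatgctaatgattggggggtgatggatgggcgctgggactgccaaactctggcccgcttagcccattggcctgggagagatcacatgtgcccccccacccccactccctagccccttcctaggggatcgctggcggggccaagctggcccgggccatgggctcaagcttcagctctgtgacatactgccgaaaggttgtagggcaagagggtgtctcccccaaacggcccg
The Hoxb8 window holds the motif once on each strand, 8 bases apart, the Hoxd4 window holds 2 copies and the Hoxd3 window 1. The TCF motif CTTTGAT, searched the same way, stood in 1 of the 26 windows (Hoxd8, 3.8% against 3.73% of all promoters). Direct repeats of AGGTCA after 2 or 5 bases, the form of a retinoic acid response element, stood in none of the 26 and in 0.00913% of all promoters for each spacing. Member promoters were richer in CpG, with a median of 14.5 CpG sites against 7 over all promoters and a median GC content of 57.3% against 52.7%.

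Levels were low throughout. Each library held between 10139521 and 26307363 counts, so that 1 count was worth 0.0369 to 0.102 CPM (counts scaled to a library total of 1e+06), and a member was called detected in a library at 10 counts or more, which is 0.369 to 1.02 CPM. By that measure 25 of the 42 members were detected in 1 library or more, and 17 were detected in none. Those 17 were 12 of the 16 posterior Hox genes (Hoxa9, Hoxa10, Hoxa11, Hoxa13, Hoxb13, Hoxc10, Hoxc11, Hoxc12, Hoxd9, Hoxd10, Hoxd11 and Hoxd12) and 5 of the 15 middle ones (Hoxa4, Hoxa6, Hoxb6, Hoxb7 and Hoxd8), whereas each of the 8 anterior genes and the 3 Cdx genes was detected somewhere. The low-count filter kept 23 members for testing, and the other 19 (these 17 with Hoxc6 and Hoxc8) were not tested in any comparison. A member is said to rise or fall only where edgeR's quasi-likelihood test gave an adjusted p under 0.05 over all 21601 tested genes with a log2 fold change beyond 1. Where a group held no count, the fold is a bound against 3 counts over that group, and where it held 1 to 3 counts the ratio has its 95% counting interval, which covers counting error only.

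Tet1 was lower in the KO libraries on days 0 to 4 (30.5 to 32.9 against 114 to 119 TPM, a length-scaled level, on day 0). The gap was small on day 3, at 18.6 to 25.0 TPM in KO and 25.4 to 29.6 TPM in WT cells. By day 5 its ranges overlapped (15 to 22.8 in KO, 17.3 to 23.7 in WT). The 4 pluripotency markers summed to 2360 to 2500 CPM on day 0, and 8 neural progenitor markers to 512 to 545 CPM in WT, 554 in WT70, 456 to 516 in MUT but 106 to 133 in KO cells on day 5. The WT7 library of day 5 in experiment 2 stood apart from the WT libraries of experiment 1: its 12 mesoderm markers summed to 120 CPM against 35.8 and 37.2, its 8 endoderm markers to 142 against 28.6 and 28.8, and its streak and tail bud markers to 279 against 92.5 and 94.7. Day 5 results are therefore given with both experiments and with each alone.

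**Figure D1:**
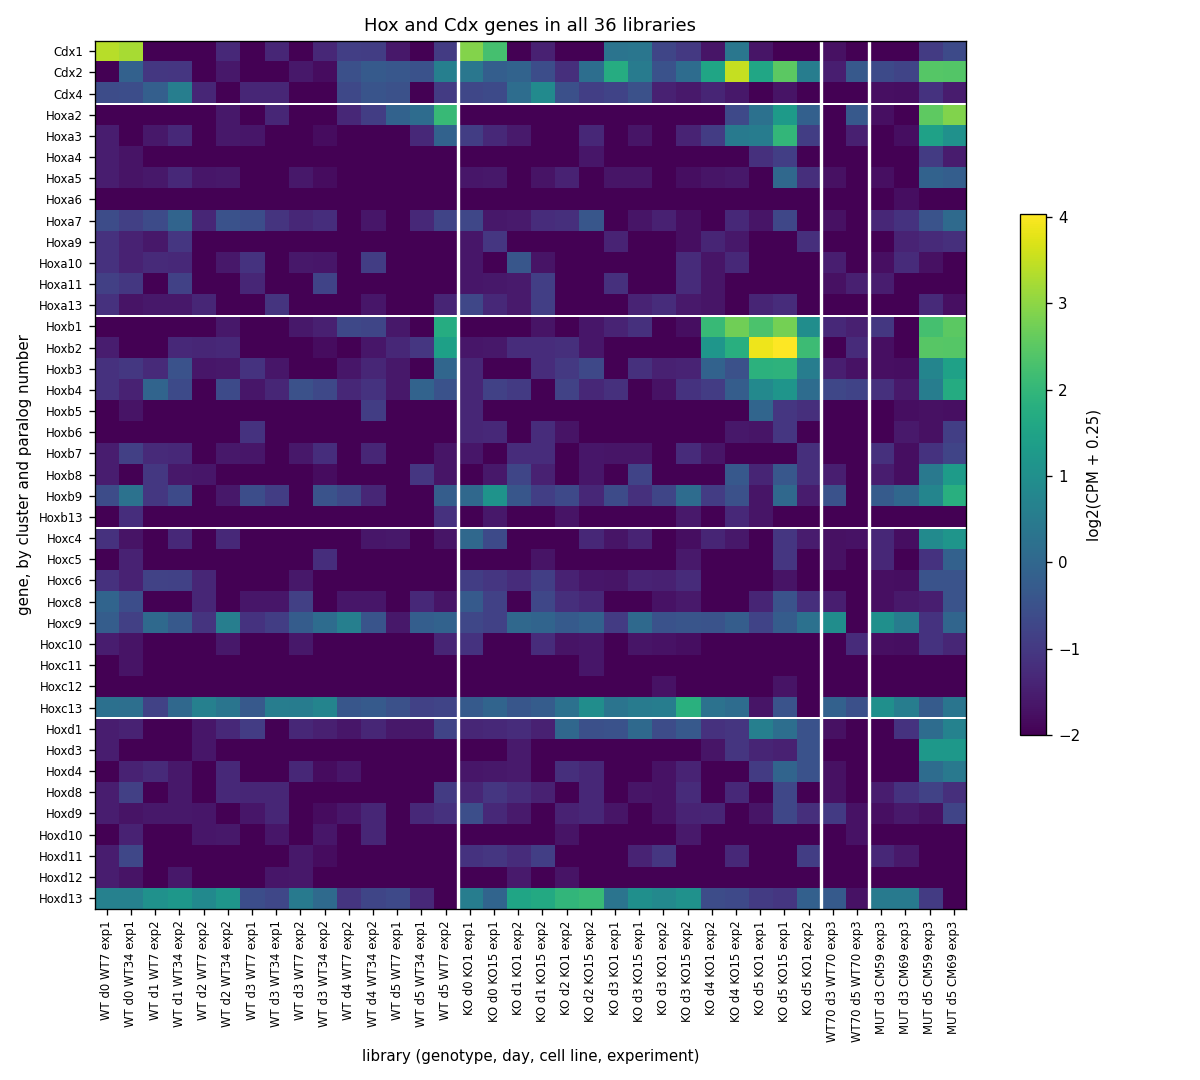
Heat map of 41 of the 42 Hox and Cdx genes (rows, by cluster and paralog number) in the 36 libraries (columns, by genotype, day, cell line and experiment), coloured by log2(CPM + 0.25). Most rows stay dark in every library, and the brightest block is formed by anterior genes in KO and MUT cells on day 5, with 16 members detected in both MUT libraries.

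Over the course of differentiation the summed Hox level stayed low and then rose late, in some groups only. The 39 genes together summed to 1.81 to 2.33 TPM on day 0 and to 1.06 to 2.37 TPM in the 11 libraries of day 3. On day 5 the sum was 1.03 and 1.48 TPM in WT cells of experiment 1 and 5.10 TPM in WT7 of experiment 2, against 9.65 and 12.9 TPM in KO cells of experiment 1 and 4.68 TPM in KO1 of experiment 2. MUT cells reached 10.7 and 13.5 TPM and WT70 0.779 TPM. The makeup had changed by day 5, also where the sum stayed low. Posterior genes held 40.4% to 70.7% of the sum on day 3, and anterior genes held 74.9% to 89.1% of it in KO and 64.2% to 75.8% in MUT cells on day 5. In WT cells on day 5 the anterior share was 78.3% and 58.7% in experiment 1 and 82.9% in WT7 of experiment 2.

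**Figure D2:**
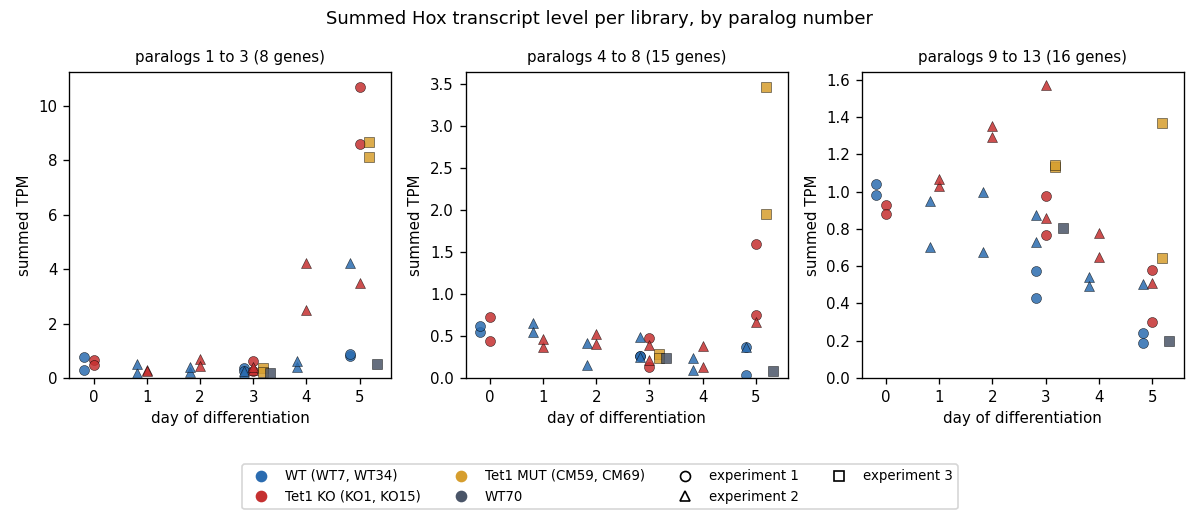
Summed TPM of the anterior (paralogs 1 to 3, 8 genes), middle (4 to 8, 15 genes) and posterior (9 to 13, 16 genes) Hox genes against the day of differentiation, 1 point per library, coloured by genotype with a marker for each experiment. Anterior sums reach 3.50 to 10.7 TPM in KO and 8.13 to 8.66 TPM in MUT cells on day 5, while posterior sums are highest, at 1.57 TPM, in a KO library of day 3.

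Cdx1, which acts downstream of Wnt and retinoic acid in the early embryo, was the most abundant member in ESCs (mean 2.37 TPM in WT and 1.48 TPM in KO) and fell on leaving that state. It stood at 10.1 and 9.24 CPM in WT and 7.33 and 4.48 CPM in KO cells on day 0, and at 0 to 0.155 CPM in all 8 libraries of days 1 and 2. Of the tested members 2 of 23 fell and none rose in WT cells between days 0 and 3, where 22.5% of all genes were called and Cdx1 was among the 2 (log2 fold change -6.33 ± 0.87, SE). In KO cells 3 fell and none rose, against 21.2% of all genes, among them Cdx1 (-2.94 ± 0.71, edgeR adjusted p 0.0017) and Hoxc4 (-2.90 ± 1.13, adjusted p 0.0431). When lines were paired across days as a replicate block, Hoxc4 no longer passed (-3.10, edgeR adjusted p 0.053). Days 0 and 3 share lines, and these calls rest on day 0 libraries of experiment 1 only. Feeder fibroblast markers moved with these falls: 8 of 12 were called lower and 2 higher in WT cells, and 7 of 12 lower and 1 higher in KO cells, with median log2 fold changes of -3.25 and -2.63. Their sum was 154 to 162 CPM on day 0 and 99.1 to 152 CPM on day 3 in WT cells, and 122 to 159 against 64 to 87.8 CPM in KO cells, with none of the 12 at 0 throughout a group. Their part in these falls was not tested.

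Cdx4, a Cdx gene of the tail bud, had its highest values on day 1, at 0.638 and 1.25 CPM in WT and 0.866 and 1.61 CPM in KO cells. On day 3 it was between 0 and 0.458 CPM in the 8 KO and WT libraries. Hoxd13, the last gene of the HoxD cluster, was the only Hox gene detected in every library of days 1 and 2 in both genotypes. It measured 1.83 and 2.04 CPM in WT and 2.68 and 2.91 CPM in KO cells on day 1, and 1.58 and 2.01 against 3.66 and 3.96 CPM on day 2.

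Before day 3 no member was called between KO and WT cells. The count was 0 of 23 on day 0, when 0.866% of all genes were called, 0 on day 1 (0.634% of genes) and 0 on day 2 (0.616% of genes), by edgeR and also by DESeq2 and by limma on log2(TPM + 1). At an unadjusted p under 0.05 there were 0, 1 (Hoxd1) and 2 (Cdx2 and Hoxd1) members. The KO values of Hoxd13 lay above both WT values on days 1 and 2, with a log2 difference of 0.53 ± 0.55 (adjusted p 0.703, edgeR) and 1.08 ± 0.54 (adjusted p 0.446).

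Day 3 was the first day on which members were called between KO and WT cells, and they were Cdx2, Cdx1 and Hoxd1. That day has 4 libraries a genotype against 2 on days 0 to 2, so the first call does not date an onset. All 3 were higher in KO cells, where 3.96% of all genes were called. Cdx2, a Wnt target of the primitive streak and a regulator of trophoblast, measured 3.05 and 1.18 CPM in KO1 and KO15 of experiment 1 and 0.47 and 0.844 CPM in experiment 2. The WT libraries measured 0, 0, 0.075 and 0.0369 CPM, so that every KO library lay above every WT library. With 92 counts against 2 the ratio was 44.5 (95% counting interval 12 to 373, edgeR adjusted p 0.000377). Cdx1 measured 0.994, 1.05, 0.352 and 0.253 CPM in KO and 0, 0.144, 0 and 0.148 CPM in WT cells (log2 2.69 ± 0.82, edgeR adjusted p 0.028). Here too the KO libraries of experiment 1 were the higher ones. Hoxd1, an anterior gene of the HoxD cluster, measured 0.464, 0.786, 0.411 and 0.549 CPM in KO against 0.277, 0, 0.15 and 0.111 CPM in WT cells (log2 1.98 ± 0.64, adjusted p 0.034). Hoxd13 measured 0.994, 1.77, 1.53 and 1.82 CPM against 0.416, 0.36, 1.13 and 0.813 CPM, and did not pass (1.21 ± 0.42, adjusted p 0.0534).

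The day 3 calls rested on few counts. Experiment 1 alone gave 3 calls, with no share of all genes given for that fit. They were Cdx2 (64 counts against 0, at least 19.9-fold higher, edgeR adjusted p 0.00469), Cdx1 (31 against 2 counts, ratio 14.5, 95% counting interval 3.68 to 125, adjusted p 0.00663) and Hoxd13 (log2 1.81, adjusted p 0.041). Experiment 2 alone gave none (Cdx2 28 counts against 2, ratio 13.9, 95% counting interval 3.5 to 120, edgeR adjusted p 0.0765). Leaving out KO replicate 2 or WT replicate 2 left 1 call. Streak and tail bud markers moved with Cdx2: 6 of 10 were called higher in KO cells, and their sum was 345 to 503 CPM against 47.5 to 63.5 CPM, with none of the 10 at 0 throughout the KO group and 1 at 0 throughout the WT group. Of the 7 trophoblast genes 2 were called higher, Cdx2 itself and Tfap2c, with a sum of 15.9 to 24.3 CPM against 10.4 to 13.3 CPM. The part of either cell type in the Cdx2 difference was not tested, and in bulk libraries more cells of a type and more RNA per cell cannot be told apart.

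On day 4, 3 Hox genes other than Hoxd1 were called beside Cdx2. Hoxb1, Hoxb2 and Hoxa3, all anterior, were higher in KO than in WT cells together with Cdx2, which makes 4 of 23 called beside 7.68% of all genes. The values of these 4 did not overlap between the genotypes, which have 2 libraries each, and no share of all genes is given for this. Hoxb2, a gene of the hindbrain, measured 1.98 and 3.22 CPM in KO against 0 and 0.0704 CPM in WT cells. That was 71 counts against 1, a ratio of 71 (95% counting interval 12.3 to 2840, edgeR adjusted p 0.00212). Hoxb1, a retinoic acid target and a marker of a single hindbrain segment, measured 3.9 and 6.37 CPM in KO and 0.371 and 0.352 CPM in WT cells (log2 3.80 ± 1.15, adjusted p 0.0258). It was the Hox gene of highest level in KO cells that day (mean 1.57 TPM), beside Cdx2 at 1.50 TPM and Hoxb2 at 0.768 TPM. Cdx2 measured 2.67 CPM in KO1 and 11 CPM in KO15 against 0.445 and 0.563 CPM (log2 3.74 ± 0.86, edgeR adjusted p 0.00266), the highest Cdx2 value of the series. Hoxa3 measured 0.274 and 1.15 CPM against no count in WT cells, at least 6.34-fold higher (edgeR adjusted p 0.0403). Hoxd1, called on day 3, held 6 counts against 3 on day 4 and did not pass (ratio 2, 95% counting interval 0.427 to 12.4, edgeR adjusted p 0.641).

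Day 4 has 2 libraries a genotype, and without KO replicate 2 a single call remained, while without either WT library there were 2. Of the 12 mesoderm markers 9 were called higher in KO cells (sum 222 to 229 against 49.7 to 73.4 CPM), as were 6 of 8 endoderm markers and 5 of 7 trophoblast markers (Cdx2 itself is 1 of the 5), and 6 of 8 neural progenitor markers were called lower. Their part in the Hox values was not tested.

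**Figure D3:**
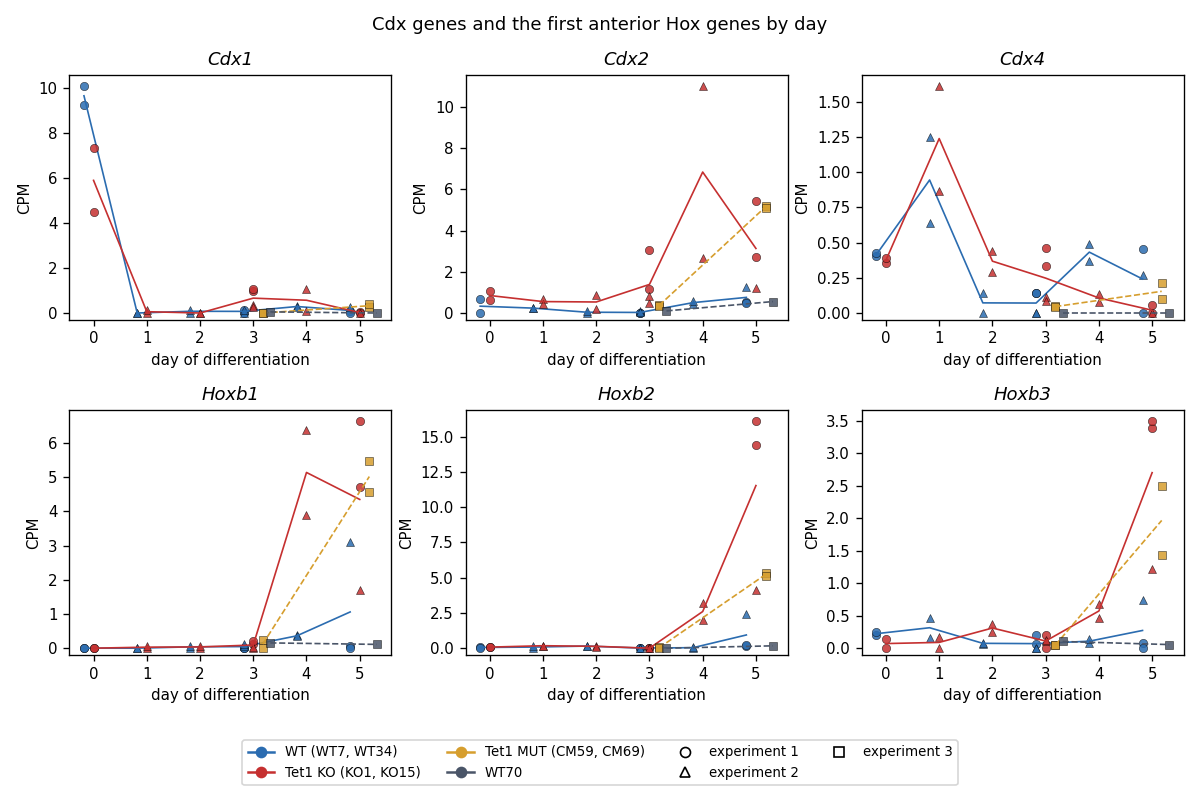
CPM of Cdx1, Cdx2, Cdx4, Hoxb1, Hoxb2 and Hoxb3 against the day of differentiation, 1 point per library with a marker for each experiment and lines through the means of each genotype. Cdx1 drops from 4.48 to 10.1 CPM on day 0 to near 0, Cdx2 and Hoxb1 are raised in KO cells on day 4, and Hoxb2 reaches 14.4 and 16.1 CPM in KO cells of experiment 1 on day 5.

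By day 5 anterior and some middle Hox genes of the A, B and D clusters were higher in KO cells. In all, 11 members were higher and 1 lower of the 23 tested, beside 11.7% of all genes. Hoxb5 reached 10 counts only in a KO library of day 5, so it was kept for testing through the group where it was high. Hoxa5 and Hoxd4 reached 10 counts only in KO and MUT libraries of day 5. For 6 of the 12 called, the groups overlapped, and no share of all genes is given for this. The anterior genes Hoxb1, Hoxd1, Hoxb2, Hoxa3, Hoxb3 and Hoxd3 were among the 11 called higher.

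Hoxb2 had the highest level of all members in KO cells, with a mean of 3.42 TPM. It measured 14.4 and 16.1 CPM in experiment 1 and 4.12 CPM in experiment 2, against 0.151, 0.232 and 2.43 CPM in WT cells (log2 3.93 ± 0.74, edgeR adjusted p 0.000241). The highest WT value, from WT7 in experiment 2, stayed below the lowest KO value. Hoxb3, another hindbrain gene, measured 3.39, 3.49 and 1.22 CPM against 0.0757, 0 and 0.742 CPM (3.19 ± 0.84, adjusted p 0.00444), again without overlap. Hoxd1 measured 1.26, 0.889 and 0.468 CPM against 0.0757, 0.0773 and 0.337 CPM (2.31 ± 0.73, adjusted p 0.0172).

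For Hoxb1, Cdx2 and Hoxa3, also called, the WT7 library of experiment 2 reached into the KO range. Hoxb1 measured 4.72, 6.63 and 1.69 CPM against 0.0757, 0 and 3.1 CPM (2.58 ± 0.98, edgeR adjusted p 0.0497). Cdx2 measured 2.72, 5.45 and 1.22 CPM against 0.53, 0.464 and 1.28 CPM (1.82 ± 0.69, adjusted p 0.0469). Hoxa3 measured 1.2, 3.73 and 0.281 CPM against 0, 0.155 and 0.674 CPM (2.63 ± 1.01, adjusted p 0.0499). In each of these the KO library of experiment 2 was below the WT library of the same experiment.

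The other 4 genes called higher held no count in any WT library of day 5, so their folds are bounds. Hoxd4 was at least 6.73-fold higher (adjusted p 0.00244, edgeR), Hoxb5 at least 5.45-fold (0.0397), Hoxa5 at least 4.81-fold (0.0121) and Hoxd3 at least 2.89-fold (0.0364), with 9 to 21 counts over the 3 KO libraries. Hoxb4, the middle gene with the most counts in KO cells, measured 1.53, 1.95 and 0.843 CPM against 0.0757, 0.695 and 0.472 CPM and did not pass (1.86 ± 0.76, adjusted p 0.0653). Cdx4 was the member called lower, with 1 count against 10 (ratio 0.0962, 95% counting interval 0.00222 to 0.676, adjusted p 0.0319), and its groups overlapped. Hoxa2, whose paralog Hoxb2 lies in the HoxB cluster, measured 0.93, 2.19 and 0.656 CPM against 0.681, 0.85 and 3.91 CPM (-0.25 ± 0.82, adjusted p 0.876).

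**Figure D4:**
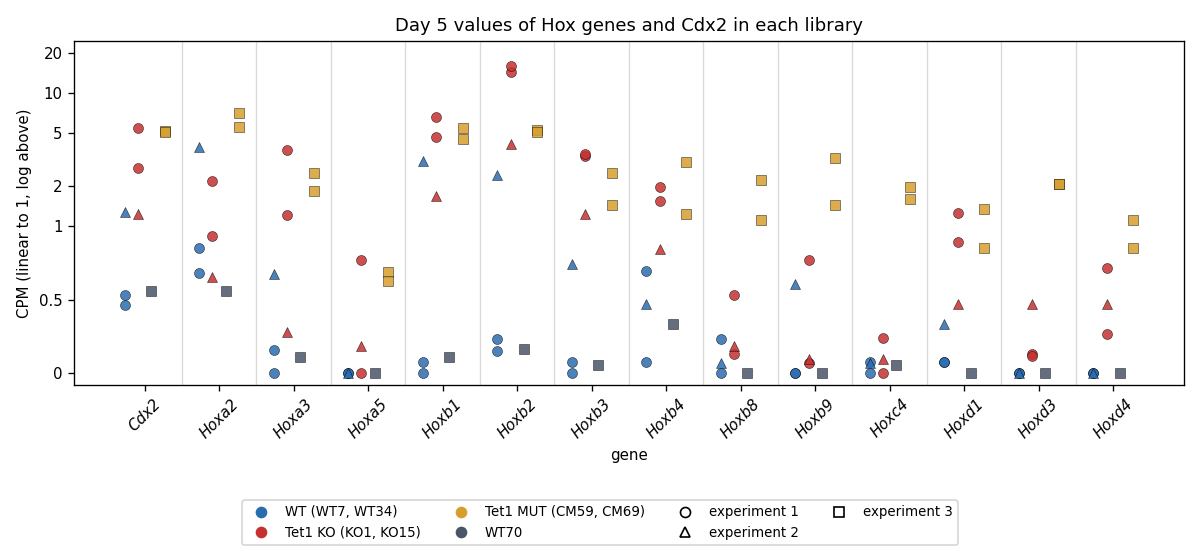
CPM on day 5 of Cdx2 and 13 Hox genes in each library, 1 point per library coloured by genotype with a marker for each experiment, on an axis that is linear to 1 CPM and logarithmic above. Hoxb2, Hoxb3 and Hoxd1 lie higher in each of the 3 KO libraries than in the 3 WT libraries, and Hoxd3, Hoxc4, Hoxb8 and Hoxb9 are highest in the 2 MUT libraries.

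Within experiments the day 5 values differed. Experiment 1 alone, with 2 libraries a genotype, called 8 members higher in KO cells (no share of all genes is given for this fit). Among them, Hoxb2 (log2 6.27) and Cdx2 (3.03) had more than 3 counts in both groups. Hoxb1 held 183 counts against 1 (ratio 150, 95% counting interval 26.6 to 5950), Hoxb3 110 against 1 (90.1, 15.8 to 3590), Hoxa3 81 against 2 (33.2, 8.89 to 279) and Hoxd1 34 against 2 (13.9, 3.57 to 120). Hoxb9 held 14 counts against 0, at least 3.82-fold higher. For these 7 genes the values of experiment 2 alone, with 1 library a genotype and the spread taken from the other days, were smaller or of the other sign. They were -0.88 on the log2 scale for Hoxb1, -0.07 for Cdx2, 0.76 for Hoxb2, 0.71 for Hoxb3 and 0.46 for Hoxd1. Hoxa3 held 3 counts against 10 there (ratio 0.417, 95% counting interval 0.0738 to 1.62) and Hoxb9 1 against 9 (0.154, 0.00352 to 1.11). The single call of experiment 2 alone was Hoxd13, which went the other way, with 7 counts against 0 (at least 3.24-fold higher) and a log2 value of -0.08 in experiment 1 alone. Without WT replicate 3, the WT7 library of experiment 2, there were 10 calls, and without WT replicate 1 there were 4, without WT replicate 2 there were 6, and without KO replicate 1 or 2 there were 5 or 7.

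On day 5 mesoderm and endoderm markers were higher in KO cells in both experiments, the Hox sum only in experiment 1. In experiment 2 the mesoderm markers summed to 588 CPM in KO1 and 120 CPM in WT7, beside Hox sums of 4.68 and 5.1 TPM. All 12 mesoderm markers were called higher in KO cells, with a sum of 588 to 762 CPM against 35.8 to 120 CPM, all 8 endoderm markers were called higher (462 to 499 against 28.6 to 142 CPM) and all 8 neural progenitor markers were called lower. The midbrain and hindbrain markers summed to 111 to 132 CPM in KO and 143 to 280 CPM in WT cells. No marker of these 4 lists was at 0 throughout either group. Their part in the Hox values was not tested.

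MUT cells were compared with WT70, of which there is 1 library a day whose spread is assumed to be that of the other groups. No member was called on day 3: 0 of 23 members were called by edgeR, DESeq2 or limma, beside 0.148% of all genes, and 0 had an unadjusted p under 0.05. Cdx2, raised in KO cells that day, measured 0.39 and 0.339 CPM in MUT and 0.103 CPM in WT70 cells.

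On day 5 the MUT cells held more Hox genes above the detection minimum than any other group, though that minimum was worth fewer CPM there. It was 0.592 to 0.937 CPM in KO cells but 0.53 and 0.481 CPM in the 2 deeper MUT libraries. Both libraries detected 16 members, among them Cdx2, Hoxa2, Hoxa3, Hoxa5, Hoxb1, Hoxb2, Hoxb3, Hoxb4, Hoxb8, Hoxb9, Hoxc4, Hoxc13, Hoxd1, Hoxd3 and Hoxd4, while WT70 detected 3, among them Cdx2 and Hoxa2. Only 3 of 23 were called against WT70, beside 1.87% of all genes. Some of the 23, such as Hoxd3 and Hoxb8, reached 10 counts in the MUT libraries of day 5 alone and were kept for testing through them. Among the 3, Hoxb2 measured 5.3 and 5.15 CPM in MUT against 0.167 CPM in WT70 cells, a ratio of 31.3 (95% counting interval 10.6 to 153, edgeR adjusted p 0.0367). Hoxd1 measured 0.847 and 1.35 CPM against no count, at least 6.65-fold higher (edgeR adjusted p 0.0283). Both are anterior genes that were also higher in KO cells of day 5.

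Other members were as far apart in level without passing. Hoxa2 had the highest mean in MUT cells, 1.93 TPM, at 5.56 and 7.12 CPM against 0.556 CPM in WT70 cells (log2 3.49, edgeR adjusted p 0.166). Hoxb1 measured 4.55 and 5.48 CPM against 0.111 CPM (ratio 45.3, 95% counting interval 12.4 to 377, adjusted p 0.105) and Cdx2 5.19 and 5.1 CPM against 0.556 CPM (3.19 ± 1.09, adjusted p 0.117). Hoxd3, an anterior gene, and the middle genes Hoxb8, Hoxd4 and Hoxc4 had their highest values of the series in these 2 libraries. Hoxd3 measured 2.07 CPM in both (at least 12.4-fold above WT70, adjusted p 0.0623), Hoxb8 1.11 and 2.21 CPM (at least 10.1-fold, adjusted p 0.102) and Hoxd4 0.847 and 1.11 CPM (at least 5.89-fold, adjusted p 0.0769). Hoxc4 measured 1.59 and 1.97 CPM against 0.0556 CPM. Hoxb9, chosen after its values were seen as the posterior gene with the highest value in these libraries, measured 1.43 and 3.27 CPM against no count (at least 14.3-fold, adjusted p 0.0513). It also measured 1.89 CPM in the KO15 ESC library.

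The call count on MUT day 5 depended on the control, and no share of all genes is given for the other fits. With only the compared libraries it was 15, with WT7 and WT34 as the control 13, and with all WT libraries of the day 16, whereas leaving out either MUT library gave 0. Of the marker lists, 5 of 12 mesoderm and 5 of 8 endoderm markers were called higher (sums 239 to 243 against 109 CPM, and 172 to 194 against 35.1 CPM), and 1 of 8 neural progenitor markers was called lower. Their part in the MUT values was not tested. The KO effect minus the MUT effect was not past the threshold for any member on day 3 (0 called, 0.394% of all genes, 0 at an unadjusted p under 0.05) or on day 5 (0 called by edgeR and DESeq2 and 1 by limma, 3.62% of all genes, 7 at an unadjusted p under 0.05). The smallest adjusted p was that of Cdx4 on day 5 (-7.61, adjusted p 0.0634, edgeR). That value rests on 1 count in KO against 10 in WT and on 6 in MUT against 0 in WT70 cells, so its size is poorly determined. By edgeR these data do not show that the KO and MUT effects on any tested member differ.

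Between days 3 and 5 anterior Hox genes rose in every genotype, in different numbers. In WT cells 5 members rose and 2 fell beside 15.5% of all genes. Hoxa2 (ratio 65.4, 95% counting interval 17.5 to 549), Hoxb2 (68.7, 11.7 to 2780), Cdx2 (26.8, 6.84 to 231) and Hoxb1 (4.04 ± 1.18, edgeR adjusted p 0.00829) were among those that rose. Without the WT7 library of experiment 2 there were 4 calls, and Hoxb1, with 1 count left on day 5, did not pass (edgeR adjusted p 0.636). That library also held most day 5 WT counts of the others named: 58 of 78 for Hoxa2, 36 of 41 for Hoxb2 and 19 of 32 for Cdx2. The WT ratios above therefore rest largely on it. In KO cells 11 rose and 4 fell beside 22.3% of all genes. Those that rose included Hoxb2 (at least 296-fold, from 0 counts on day 3), Hoxa2 (at least 32.3-fold), Hoxb5 (at least 9.46-fold), Hoxd3 (at least 5.01-fold), Hoxa5 (ratio 8.34), Hoxb1 (log2 5.96 ± 1.05), Hoxa3 (4.86 ± 1.07), Hoxb3 (4.48 ± 0.81), Hoxb4 (3.62 ± 0.79) and Hoxd4 (3.49 ± 0.95). In MUT cells 15 rose and 1 fell beside 17.4% of all genes, among them Hoxa2 (ratio 281, 95% counting interval 50 to 11100), Hoxb2 (230, 40.8 to 9130), Hoxd3 (at least 30.4-fold), Hoxd4 (at least 14.4-fold) and Hoxb8 (24.8, 8.14 to 123). Hoxd3 and Hoxb8 reached the detection minimum only in MUT libraries of day 5 and were kept for testing through them. Hoxb5 reached it only in a KO library of day 5, and Hoxa5 and Hoxd4 only in KO and MUT libraries of that day. The numbers that rose in KO and MUT cells thus depend partly on this selection. They were not tested against the shares of all genes. The 3 comparisons use separate libraries, but KO and WT share days and experiments, and no difference between them was tested here.

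No HoxC gene was called between KO and WT or between MUT and WT70 cells on any day. Hoxc4, a middle gene of the neck and upper trunk, rose in MUT cells between days 3 and 5 (0.146 and 0.0424 CPM against 1.59 and 1.97 CPM, log2 4.16 ± 1.08, edgeR adjusted p 0.00387). Hoxc9, a trunk gene, stood at 1.75 and 1.19 CPM in MUT and 1.69 CPM in WT70 cells on day 3, above the 0.208 to 0.85 CPM of the 8 KO and WT libraries of that day.

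The genes called lower after day 3 were posterior Hox genes and Cdx genes. Hoxc13, the last gene of the HoxC cluster, fell in WT (-1.47 ± 0.55, edgeR adjusted p 0.0345) and in KO cells (-2.84 ± 0.60, adjusted p 0.000253), from 0.555 to 3.33 CPM on day 3 to 0 to 0.474 CPM on day 5. Hoxd13 fell in WT (-1.76 ± 0.64, adjusted p 0.029), KO (-1.96 ± 0.52, adjusted p 0.00245) and MUT cells (-3.07 ± 0.73, adjusted p 0.00137). In KO cells Cdx1 (43 counts on day 3 against 1 on day 5, ratio 0.0388) and Cdx4 (16 counts against 1, ratio 0.104) fell as well. Hoxd13 and Hoxc13 encode the proteins that in the embryo pattern the tail end and, for Hoxd13, the limb, and the highest value of either in any library was 3.96 CPM.

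**Figure D5:**
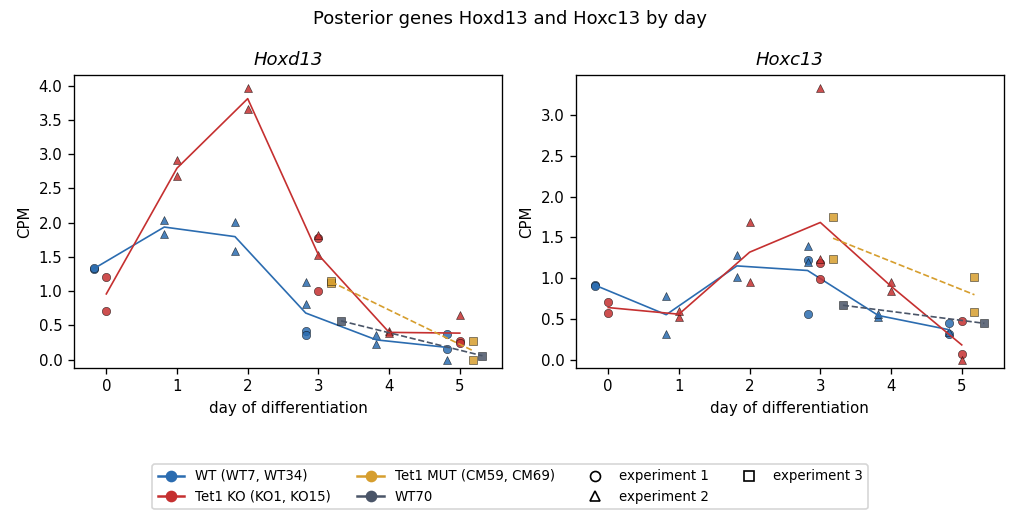
CPM of Hoxd13 and Hoxc13 against the day of differentiation, 1 point per library with a marker for each experiment and lines through the means of each genotype. Hoxd13 is highest in KO cells on day 2, at 3.66 and 3.96 CPM, and falls to 0.237 to 0.656 CPM by day 5, and Hoxc13 has a single KO library of day 3 at 3.33 CPM.

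The noncoding RNAs of the clusters were mostly at or near 0. Of 11 listed, 10 were in the tables and 5 were tested. Hoxb3os, transcribed opposite to Hoxb2 and Hoxb3, was higher in KO cells on day 4 (2.33 and 3.38 against 0.371 and 0.141 CPM, log2 3.45 ± 0.95, edgeR adjusted p 0.0172) and on day 5 (6.45, 7.52 and 6.46 against 0.227, 0.0773 and 3.17 CPM, 3.08 ± 0.70, adjusted p 0.00211), and in MUT cells on day 5 (8.47 and 9.52 against 0.334 CPM, 4.72 ± 1.18, adjusted p 0.0371). In experiment 2 of day 5 Hoxb3os measured 6.46 CPM in KO1 against 3.17 CPM in WT7, where Hoxb1 measured 1.69 against 3.1 CPM. Hotairm1, a noncoding RNA of the HoxA cluster, was higher in MUT than in WT70 cells on day 5 (65 counts against 2, ratio 14.7, 95% counting interval 3.92 to 124, edgeR adjusted p 0.0316). Halr1, a noncoding RNA near the HoxA cluster, was at 8.45 to 10.5 CPM in ESCs of both genotypes and at 0 to 0.208 CPM on day 3 (WT log2 -7.25 ± 0.86). It was higher in KO than in WT cells on day 5 (16 counts against 1, ratio 15.4, 95% counting interval 2.39 to 645, edgeR adjusted p 0.0281), with groups that overlapped. Between days 3 and 5 it rose in KO cells (ratio 26.7, 95% counting interval 4.15 to 1120, edgeR adjusted p 0.00263) and in MUT cells (18.9, 2.96 to 790, adjusted p 0.0197).

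Of 16 listed genes of the signals that act on Hox and Cdx genes, 6 were higher and none lower in KO cells on day 3, all ligands or enzymes of Wnt, FGF or retinoic acid pathways: Wnt8a (log2 4.22 ± 0.41), Fgf8 (4.63 ± 0.52), Wnt3 (3.01 ± 0.33), Wnt5b (2.24 ± 0.23), Fgf17 (1.68 ± 0.35) and Cyp26a1 (1.32 ± 0.39). On day 4, 5 were higher and none lower, now with Aldh1a2, which makes retinoic acid (6.43 and 12.2 against 1.04 and 1.06 CPM, 3.14 ± 0.82, edgeR adjusted p 0.00774), and Rarb, a retinoic acid receptor and target gene (2.51 ± 0.51). On day 5, 3 were higher (Rarb 4.26 ± 0.37, Cyp26a1 2.20 ± 0.32 and Wnt5a 1.71 ± 0.31) and 3 lower (Cyp26c1, Wnt3a and Wnt8a), and in MUT cells 3 were higher (Aldh1a2 4.14 ± 1.02, Rarb 2.72 ± 0.56 and Wnt8a 2.79 ± 0.72) and none lower. Aldh1a2 stood at 19.1 CPM in the WT7 library of experiment 2 on day 5, against 0.908 and 1.93 CPM in the other WT libraries.

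The 9 TALE cofactors bind DNA together with Hox proteins, and 3 of them were called between KO and WT cells on day 5. Meis1 (15.6, 16 and 18.9 against 2.12, 2.09 and 12.1 CPM, log2 1.84 ± 0.41, edgeR adjusted p 0.00111) and Meis3 (1.19 ± 0.19) were higher and Pbx4 (-1.76 ± 0.20) lower in KO cells, and none of the 9 was called between MUT and WT70 cells. Of 10 homeobox relatives 8 were tested. Evx1, which lies next to the HoxA cluster and marks the primitive streak, was higher in KO cells already on day 3 (43.7, 32.7, 17.5 and 18.2 against 0.416, 0.0719, 0.6 and 0.185 CPM, 6.41 ± 0.51) and on days 4 (3.02 ± 0.54) and 5 (3.11 ± 0.53). Gbx2, an anterior hindbrain gene, was lower on days 4 (-2.23 ± 0.67) and 5 (-2.46 ± 0.56). Of the 20 listed genes that lie beside the clusters but are no Hox genes, 18 were tested and none was called between KO and WT or between MUT and WT70 cells on any day.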

How the data were processed

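RNA was measured in 36 libraries by single-end RNA-seq with a stranded mRNA kit. The authors trimmed reads with Trim Galore 0.6.4 and quantified transcripts with Salmon 0.14.1, per the labels, on mm10. They deposited expected counts per gene, which need not be whole (73.8% were exactly whole), and TPM, which are scaled by transcript length to a fixed total, in separate tables for experiments 1, 2 and 3.

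Expected counts were rounded and tested with edgeR 4.0.16 in R 4.3.3. The quasi-likelihood F test used all 36 libraries, 16 group means and a term for experiment 2 (19 residual degrees of freedom), with Benjamini-Hochberg adjustment over the 21601 genes that passed edgeR's filter (minimum count 10, minimum total 15). CPM used TMM-scaled totals. Levels of different genes are compared in TPM only. Genes are called at adjusted p under 0.05 with log2 fold change beyond 1.

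No pair of the 28 within a group differed by less than sampling noise (lowest chi-square per degree of freedom 4.33). The same cell lines recur on different days, so a fit with the line as a replicate block was made. Deviations of a line from its group mean had correlations between days of -0.0256 to 0.0457 over 21601 genes. The blocked value stands beside the result only where a call changed.

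Members and gene lists were chosen with earlier results of these data known. Values in every library are given for Cdx1, Cdx2, Cdx4, Hoxb1, Hoxb2 and members called in a KO or MUT comparison that were detected in every library of the higher group, and a few others are named as examples. The values of 1 member are not reported here, while counts and sums include it. The alternatives were DESeq2 1.42.0, limma 3.58.1 on log2(TPM + 1), other size factors, no filter, a stricter fold of 1.5, no experiment term, only the compared libraries, each experiment alone, 1 summed library per line, other WT controls and each library left out. On data simulated for KO against WT on day 5 the script was tested before use.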

Additional observations from a re-analysis of the deposited data

Results flagged for a closer look

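Among the 4 KO libraries of day 3, Hoxc13 stood at 3.33 CPM in KO15 of experiment 2, against 0.994, 1.18 and 1.23 CPM in the other libraries of that group. The gap to the next library was a share of 0.899 of the whole range, beyond Dixon's limit for groups of 4. Of the Hox and Cdx genes, 8 were examined in this way in the KO and 6 in the WT libraries of day 3, and chance alone marks about 1 in 20 groups.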

How the results depend on the processing

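Counts of called Hox and Cdx genes are given first as reported and then by alternative. No share of all genes is given for the alternatives, so the counts show only how the calls depend on the processing. KO against WT on day 2 (0) had 1 without a filter on low counts. On day 3 (3) there was 1 with 1 summed library per line and 1 with only the compared libraries, and 0 with experiment 2 alone and with limma. On day 4 (4) limma gave 2. On day 5 (12) DESeq2 gave 6, only the compared libraries 2, and limma and experiment 2 alone 1 each. MUT against WT70 on day 3 (0) had 1 with WT7 and WT34 as the control, and on day 5 (3) it had 16 with all WT libraries as the control, 13 with WT7 and WT34, 15 with only the compared libraries and 12 without a filter. The difference of KO and MUT effects on day 5 (0) had 1 with limma and 3 without a filter. WT day 3 against day 0 (2) had 4 with DESeq2, 4 without an experiment term and 1 with limma. WT day 5 against day 3 (7) had 0 with limma and 2 with only the compared libraries. KO day 3 against day 0 (3) had 1 with limma and 5 without a filter, KO day 5 against day 3 (15) had 3 with limma and 8 with only the compared libraries, and MUT day 5 against day 3 (16) had 4 with limma. The limma test kept only genes with 1 TPM in at least 2 libraries, which leaves 6 of the 42 (among them Cdx1, Cdx2, Hoxa2, Hoxb1 and Hoxb2), and the cause of the other shifts was not tested.

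Leaving out 1 library at a time gave 1 to 3 calls for KO against WT on day 3, 1 to 4 on day 4 and 4 to 10 on day 5, 0 for MUT against WT70 on day 5, and 0 to 1 for the difference of effects on day 5, where omitting KO replicate 2 or WT replicate 2 gave the 1. It gave 2 to 3 for WT day 3 against day 0, 4 to 8 for WT day 5 against day 3, 2 for KO day 3 against day 0, 13 to 15 for KO day 5 against day 3 and 12 to 16 for MUT day 5 against day 3.

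Log2 values changed sign for KO against WT on day 5 with experiment 2 alone (Cdx2 -0.07, Hoxa3 -1.24 and Hoxb1 -0.88), for Hoxc9 in MUT against WT70 on day 3 with WT7 and WT34 as the control (2.03) and for Hoxb1 in WT between days 3 and 5 without WT replicate 3 (-1.14, in a range up to 4.84 over the libraries left out in turn). The cell line as a replicate block took the call from Hoxc4 in KO cells between days 0 and 3 (-3.10), and changed no other call or count. Of the 202 alternative counts, 161 stayed within 1.5 times the reported one. Levels near 1 count per library limit every statement on middle and posterior genes.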
